A study of Mus musculus with 17 samples.

Results

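Ribosome biogenesis factors are the nucleolar and cytoplasmic proteins that build the 2 ribosomal subunits without remaining part of them. A list of 54 gene symbols of such factors was followed by symbol through the ERCC-calibrated expression table of the study, which holds 23282 genes. Of the 54 symbols, 53 were listed and are described here, and Noc2l was not analysed here. Germ cells of 3 stages were sorted from wild-type (WT) and Nat10-SKO male mice (C57BL/6 in the labels, C57BL/6J in the study's methods) by Hoechst and propidium iodide staining, namely spermatogonia (SPG), cells in pre-leptotene (PreL), and a pool in leptotene or zygotene (LZ). Nat10-SKO mice carry the genotype labelled Stra8-cre_Nat10_KO, in which Cre expressed from the Stra8 locus excises floxed exons 4 and 5 of Nat10 in germ cells. The study writes their genotype as Nat10 fl/- with Stra8-Cre, that is a floxed allele and a null allele. The WT mice are labelled Wildtype, with no Cre or floxed allele named. There were 3 libraries of each genotype in SPG and in PreL, 2 of WT LZ and 3 of SKO LZ, 17 in all. The labels do not say whether the replicates of a group came from separate animals, so each p-value measures only the spread between these libraries, and the age of the mice is not given in the sources used here.

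Ribosome assembly begins on the rRNA precursor made by RNA polymerase I. The small-subunit (SSU) processome, a particle of many protein complexes and the U3 small nucleolar RNA, folds and cleaves the precursor of 18S rRNA, while a separate set of factors matures the large (60S) subunit, and late factors accompany the small (40S) subunit to the cytoplasm. NAT10 itself acetylates 18S rRNA and takes part in its processing, which is why these factors are of interest in cells in which Nat10 was targeted. In the testis, spermatogonia divide and grow, and spermatocytes then pass through a long meiotic prophase.

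The deposited values were counts scaled by 1 calibration factor per library, and between 5812380 and 13820953 reads per library were recovered from them. In each comparison the values were rescaled by median-of-ratios factors of its own libraries, and the resulting rescaled counts are relative levels that can be compared between the libraries of that comparison but not between comparisons. A gene was called when limma gave a Benjamini-Hochberg adjusted p under 0.05 and its level differed by over 1 log2 unit in either direction. Nat10 counts fell in SKO in every stage, by 0.87 on the log2 scale in SPG (limma, adjusted p = 0.0326), by 1.29 in PreL (adjusted p = 0.00591) and by 1.47 in LZ (adjusted p = 0.00469); reads over its undeleted exons are still counted. The sorted populations differed in more than genotype, and 12 lists of marker or immediate early genes were summed in each library. The summed late spermatocyte markers held 3293 to 5817 RPM (recovered reads scaled to a common total) in WT LZ against 116 to 135 in SKO LZ, and the summed spermatid markers 569 to 967 against 6.93 to 8.95. Of the 7 spermatid markers, Acrv1 and Odf1 were at 0 in SKO LZ, while none of the 6 late spermatocyte markers was at 0. In PreL the summed late spermatocyte markers held 313 to 1082 RPM in WT against 65.9 to 93.1 in SKO, and the summed spermatid markers 548 to 925 against 8.08 to 13.3. In SPG the summed spermatid markers held 99.4 to 295 RPM in WT against 4.25 to 8.23 in SKO, and the summed immediate early genes 26.7 to 31.5 against 207 to 423. The summed Leydig cell markers held 5.61 to 15.5 RPM in WT SPG against 63.2 to 226 in SKO SPG, 6.25 to 17.7 in WT PreL against 40.8 to 462 in SKO PreL, and 20.9 to 57.6 in WT LZ against 81.9 to 234 in SKO LZ. The summed early meiotic markers held 3365 to 4054 in WT PreL against 5348 to 7600 in SKO PreL, and 4333 to 5065 in WT LZ against 3096 to 4715 in SKO LZ. Other sums without overlap in SPG were those of macrophage markers (7.85 to 13.9 RPM in WT, with Emr1 at 0, against 79.7 to 146 in SKO), peritubular myoid markers (0.777 to 4.40 against 35.3 to 65.2), early meiotic markers (2249 to 2323 against 3283 to 3586) and differentiating spermatogonia markers (722 to 830 against 935 to 1107). In PreL the differentiating spermatogonia markers were lower in SKO (993 to 1106 in WT against 724 to 808), and the sums of immediate early genes (41.3 to 54.1 against 76.6 to 280), peritubular myoid markers (1.99 to 5.69 against 6.22 to 13.6), endothelial markers (13.7 to 15.2 against 19.6 to 21.8) and Sertoli cell markers (18.3 to 19.4 against 22.2 to 248) were higher. In LZ the immediate early genes held 39.5 to 115 in WT against 185 to 265 in SKO, and the differentiating spermatogonia markers 599 to 659 against 473 to 528. The remaining sums overlapped between the genotypes, apart from that of the 4 germ cell markers, each detected in every group. That sum was higher in SKO in SPG (3046 to 3494 against 3621 to 3962) and PreL (3153 to 3737 against 4238 to 5042) and lower in LZ (3865 to 4042 against 3045 to 3762). All these sums are RPM. On counts rescaled over all 17 libraries, the germ cell sums of LZ overlapped, at 75128 to 102233 in WT and 96391 to 106111 in SKO. Those of the differentiating spermatogonia markers in LZ did too, at 12819 to 15145 against 14222 to 14961. Of the other markers, Nanos2 was at 0 in WT SPG and WT PreL, Hsd17b3 and Lhcgr of the Leydig cell list and Dhh of the Sertoli cell list in WT SPG, Fshr and Acrv1 in SKO SPG, and Pecam1 and Emcn in WT PreL. In sorted bulk cells, fewer cells of a type and less RNA per cell cannot be told apart, and the part of these marker differences in the results below was not tested.

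The 53 genes lie on 17 chromosomes, all are protein coding, and Utp14a is the 1 X-linked gene among them (GENCODE, GRCm38). Exons of 20 of the 53 overlap those of another annotated gene on either strand. Among these are Tbl3, Ncl, Wdr12, Wdr3, Wdr43, Imp4, Emg1, Nop14, Utp14a, Krr1, Pno1, Tsr1 and Bysl. Whether reads of the overlapping genes bear on the counts was not tested. Promoters of the factors held some short motifs more often than promoters of all expressed genes did, and others not. Both sets compared below include the factors. A RefSeq promoter entry (GRCm38.p6, 250 bases before to 50 after the start) was matched for 43 of the 53. The hexamer CGGAAG, searched on both strands, was in 28 of the 43 promoters (65.1%), against 31.0% of 10598 promoters of expressed genes and 17.2% of all 27025 promoters of the same length. It is the core letters bound by ETS family factors. CACGTG, the E-box letters bound by MYC and USF proteins, was in 10 of the 43 (23.3%), against 10.2% of expressed and 7.24% of all promoters. GGGCGG, the GC-box letters bound by SP factors, was in 32 (74.4%), against 62.6% and 35.9%, and TATAAA was in 2 (4.65%), against 7.20% and 14.2%. A match is only a match of letters, and 14 motifs were searched. The 150 bases before the start are shown for genes called in LZ whose promoter was matched, 4 of them higher and 1 lower in SKO, and for Nop2, whose stretch holds both the ETS and the E-box letters. Capitals mark these ETS, E-box and GC-box hexamers on either strand.
Nol9, chr4:152039171-152039320, plus strand: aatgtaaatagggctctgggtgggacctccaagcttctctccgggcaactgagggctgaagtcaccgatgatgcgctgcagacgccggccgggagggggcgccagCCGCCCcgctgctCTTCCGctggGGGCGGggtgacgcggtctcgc
Nol10, chr12:17348343-17348492, plus strand: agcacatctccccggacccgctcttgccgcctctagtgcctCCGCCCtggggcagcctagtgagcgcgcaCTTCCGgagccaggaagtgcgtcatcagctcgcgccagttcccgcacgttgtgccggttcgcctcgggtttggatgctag
Ncl, chr1:86359456-86359605, minus strand: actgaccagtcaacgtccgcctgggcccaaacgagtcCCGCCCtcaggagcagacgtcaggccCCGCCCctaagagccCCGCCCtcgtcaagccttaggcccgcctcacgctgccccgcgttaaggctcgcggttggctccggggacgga
Noc3l, chr19:38819238-38819387, minus strand: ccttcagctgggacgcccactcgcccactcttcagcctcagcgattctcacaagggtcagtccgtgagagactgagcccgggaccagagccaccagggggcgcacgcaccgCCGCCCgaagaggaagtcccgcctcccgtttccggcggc
Wdr12, chr1:60098501-60098650, minus strand: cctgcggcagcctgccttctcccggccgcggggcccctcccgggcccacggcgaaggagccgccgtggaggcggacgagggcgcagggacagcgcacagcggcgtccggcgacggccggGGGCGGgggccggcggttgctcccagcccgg
Nop2, chr6:125131733-125131882, plus strand: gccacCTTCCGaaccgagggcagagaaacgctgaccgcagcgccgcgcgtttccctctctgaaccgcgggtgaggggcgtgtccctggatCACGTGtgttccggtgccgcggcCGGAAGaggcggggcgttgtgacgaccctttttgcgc

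All 53 factors passed the filter of a mean of at least 10 reads in every comparison, and the fewest reads of any of them in a library were 61, for Nol6. Per kilobase of exon and as the mean of the 6 groups, Npm1 had the highest level, at 15230 rescaled counts per kb, followed by Brix1 at 3530, Ncl at 2456, Nop16 at 2362 and Ddx10 at 2049. The exon length joins all annotated exons of a gene, 10188 bases for Ncl and 2731 for Brix1. Before division by length, Ncl had the higher mean count of these 2 in every group. Npm1 and Ncl encode nucleophosmin and nucleolin, the abundant histone- and RNA-binding proteins of the nucleolus, and Brix1 encodes a 60S assembly factor. The lowest levels per kb were those of Nol6, at 89.9, and Rrp9, the U3 ribonucleoprotein component, at 96.0. The summed reads of the 53 genes took 7838 to 8105 RPM in WT SPG and 7923 to 8137 in SKO SPG, ranges that overlap. In PreL the sum held 8901 to 9179 RPM in WT and 8149 to 8324 in SKO. In LZ the ranges overlapped again, at 6330 to 7138 in WT and 6815 to 7674 in SKO. The sums of rescaled counts over all 17 libraries were 138755 to 160101 in WT LZ and 204239 to 215726 in SKO LZ, without overlap. Npm1 and Ncl weigh most in these sums. On this scale the mean of Npm1 was 31378 in WT LZ and 51068 in SKO LZ, and that of Ncl 15358 and 41099.

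**Figure D1:**
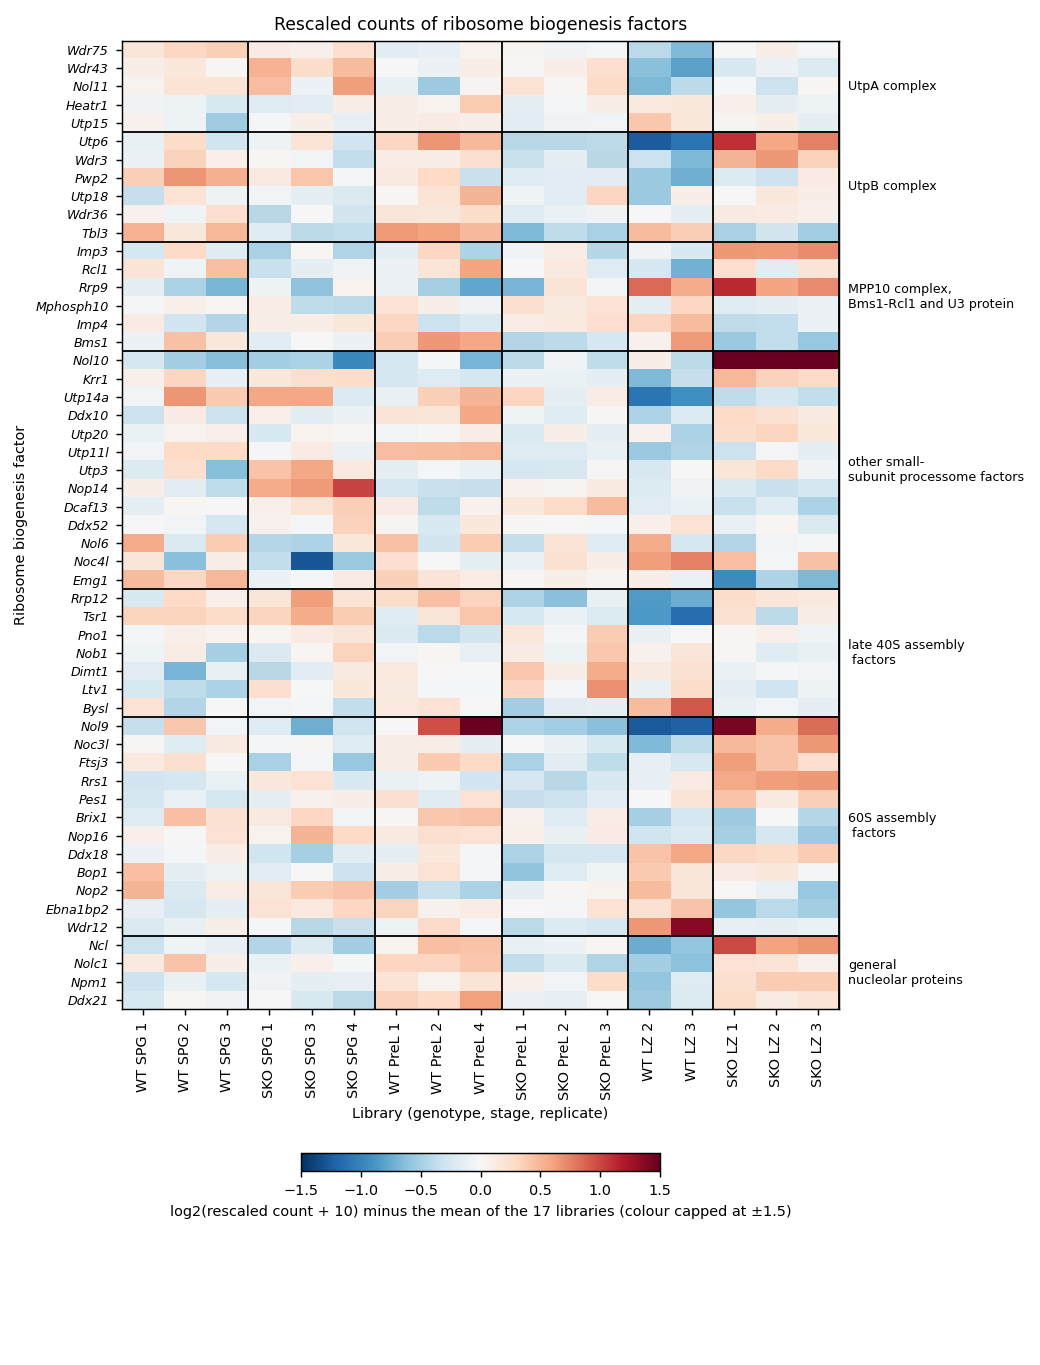
log2(rescaled count + 10) of each of the 53 factors in each of the 17 libraries, rescaled over all libraries and centred on the factor's mean; rows are grouped by role, columns by stage and genotype, and the colour is capped at 1.5 in both directions. Nol9, Utp6 and Utp14a are low in both WT LZ libraries, and Nol10 is high in all 3 SKO LZ libraries.

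The first comparison asked how the factors differed between the genotypes in spermatogonia, the earliest stage. None of the 53 was called in either direction, against 2.06% of 12846 genes called lower and 3.95% called higher. By the adjusted p alone, without the fold threshold, 2 factors fell and 2 rose (3.77% each way), against 4.84% and 6.22% of all genes. The median log2 fold change of the 53 was -0.05, and that of all genes was 0.00. Every SKO library was below every WT library for 5 factors and above for 5, which is 9.43% each way, against 14.4% and 15.2% of all genes.

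Tbl3, a subunit of the UtpB complex of the SSU processome, held 899, 696 and 880 rescaled counts in the WT SPG libraries and 542, 467 and 475 in SKO. The groups did not overlap, and Tbl3 fell by 0.72 on the log2 scale (limma, adjusted p = 0.0221). It no longer passed without WT SPG 1 (adjusted p = 0.0848), WT SPG 3 (0.107), SKO SPG 3 (0.061) or SKO SPG 4 (0.0636, all limma). Emg1, which methylates a pseudouridine of 18S rRNA, held 2227, 1963 and 2246 in WT and 1477, 1534 and 1717 in SKO. All SKO libraries were lower, and the fall was 0.44 (limma, adjusted p = 0.046). Nop14, which forms a dimer with Noc4l in the SSU processome, held 1191, 974 and 853 in WT and 1608, 1705 and 2233 in SKO. It rose by 0.87, the largest difference of the 53 in this stage (limma, adjusted p = 0.00608). Ltv1, an export factor of the 40S subunit, rose by 0.49 (limma, adjusted p = 0.0283), from 1896 ± 164 (SD, n = 3) to 2661 ± 219 (n = 3). Of the 4, Nop14 alone passed whichever of the 6 libraries was left out, while Emg1 did not pass in 5 of these 6 fits (limma, adjusted p = 0.0569 to 0.169) and Ltv1 did not in 4 (0.0687 to 0.142). The remaining 49 did not pass the test, with log2 fold changes between -0.63 for Noc4l (adjusted p = 0.171) and 0.57 for Utp3 (adjusted p = 0.0944, limma). On the ERCC-calibrated values without rescaling, the median of all genes moved to -0.25 in this comparison and 47 of the 53 lay below 0, against 29 after rescaling.

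In pre-leptotene cells, where meiosis is entered, more factors were lower in SKO than higher. Nol9, the polynucleotide kinase that acts on the spacer removed from the 28S rRNA precursor, and Tbl3 were called lower, and none was called higher. This was 3.77% of the 53 called lower, against 5.83% of 13132 genes, and 0 higher, against 5.32%. By the adjusted p alone 9 fell and 2 rose (17% and 3.77%), against 10% and 7.87% of all genes. Every SKO library was below every WT library for 20 factors (37.7%, against 20.0% of all genes) and above for 5 (9.43%, against 17.4%). The median log2 fold change of the 53 was -0.17, with 36 of them below 0, and that of all genes was 0.04; the direction depends on the scaling, since on the calibrated values without rescaling the median of all genes was 0.73, that of the 53 was 0.56 and 48 of the 53 lay above 0.

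Tbl3 held 1417, 1390 and 1281 rescaled counts in WT PreL and 576, 702 and 652 in SKO PreL. The groups stood well apart, and Tbl3 fell by 1.07 (SE 0.15, limma, adjusted p = 0.0017). Its exons overlap those of Noxo1 on the other strand, and the libraries do not keep strand. Nol9 held 2788, 5508 and 7919 in WT and 2049, 1988 and 1824 in SKO. The WT libraries spread widely, with WT PreL 1 nearest to the SKO values, and Nol9 fell by 1.34 (SE 0.31, limma, adjusted p = 0.018). Both calls depended on single libraries. Without SKO PreL 1 neither was called, with log2 fold changes of -1.37 for Nol9 (limma, adjusted p = 0.0512) and -0.99 for Tbl3 (adjusted p = 0.0143), and without WT PreL 2 only Tbl3 was called, Nol9 standing at -1.27 (adjusted p = 0.0763).

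The others that fell by the adjusted p alone came from every role except the UtpA complex. Utp6 of the UtpB complex held 2076, 2663 and 2356 in WT and 1262, 1260 and 1284 in SKO. Its groups did not overlap, and it fell by 0.89 (limma, adjusted p = 0.00282). Bms1, the GTPase that works with Rcl1 in the SSU processome, fell by 0.89 from 2900 ± 295 (SD, n = 3) to 1562 ± 107 (n = 3; limma, adjusted p = 0.00257). Utp11l, another SSU processome protein, fell by 0.64 (adjusted p = 0.00459), and Rrp12, a HEAT-repeat factor of subunit export, fell by 0.74 (adjusted p = 0.0148, both limma). Nolc1, the nucleolar chaperone also called Nopp140, held 1632, 1642 and 1738 in WT and 1024, 1138 and 960 in SKO and fell by 0.68 (limma, adjusted p = 0.00862). Ftsj3, an rRNA methyltransferase of the 60S particle, fell by 0.60 (adjusted p = 0.0243) and Ddx21, a nucleolar RNA helicase, by 0.49 (adjusted p = 0.0273, both limma). Nop14 rose by 0.41, from 1301 ± 36.5 to 1727 ± 51.5 (SD, n = 3 each; limma, adjusted p = 0.0456), and Pno1, the partner of the 18S-cleaving nuclease Nob1, rose by 0.48 (limma, adjusted p = 0.0417). Of the 11 factors past the adjusted p in PreL, Utp6, Utp11l, Tbl3 and Bms1 passed whichever of the 6 libraries was left out. Nop14 passed in none of these 6 fits (limma, adjusted p = 0.0683 to 0.17), Pno1 did not pass in 5 (0.0635 to 0.142), Ddx21 in 4 (0.0503 to 0.124), Ftsj3 in 3 (0.0534 to 0.127), Rrp12 in 3 (0.0534 to 0.0726) and Nolc1 in 1 (0.0551).

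By role, all 6 UtpB genes were below 0 in PreL (median log2 fold change -0.38), and 11 of the 12 genes of 60S assembly were (median -0.30). The UtpA genes had a median of 0.08 and the late 40S factors one of 0.20. These medians are set beside the 0.04 of all genes, and no difference between roles was tested.

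In leptotene and zygotene cells the factors separated in both directions. Nol9, Utp6, Nol10, Ncl and Noc3l were called higher in SKO and Wdr12 was called lower. The 5 called higher are 9.43% of the 53, against 13.4% of 13724 genes, and the 1 called lower is 1.89%, against 25.8% of all genes. By the adjusted p alone 19 rose (35.8%, against 19.8% of all genes) and 7 fell (13.2%, against 31.1%). Every SKO library was above every WT library for 25 factors (47.2%, against 30.3%) and below for 18 (34%, against 39.8%). The median log2 fold change was 0.19 for the 53 and -0.13 for all genes; on the calibrated values without rescaling the medians were 0.06 and -0.25, with 28 of the 53 above 0 in place of 31. For 5 factors (9.43%, against 9.37% of the genes tested in both) every SKO library lay on 1 side of WT in SPG and on the opposite side in LZ.

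**Figure D2:**
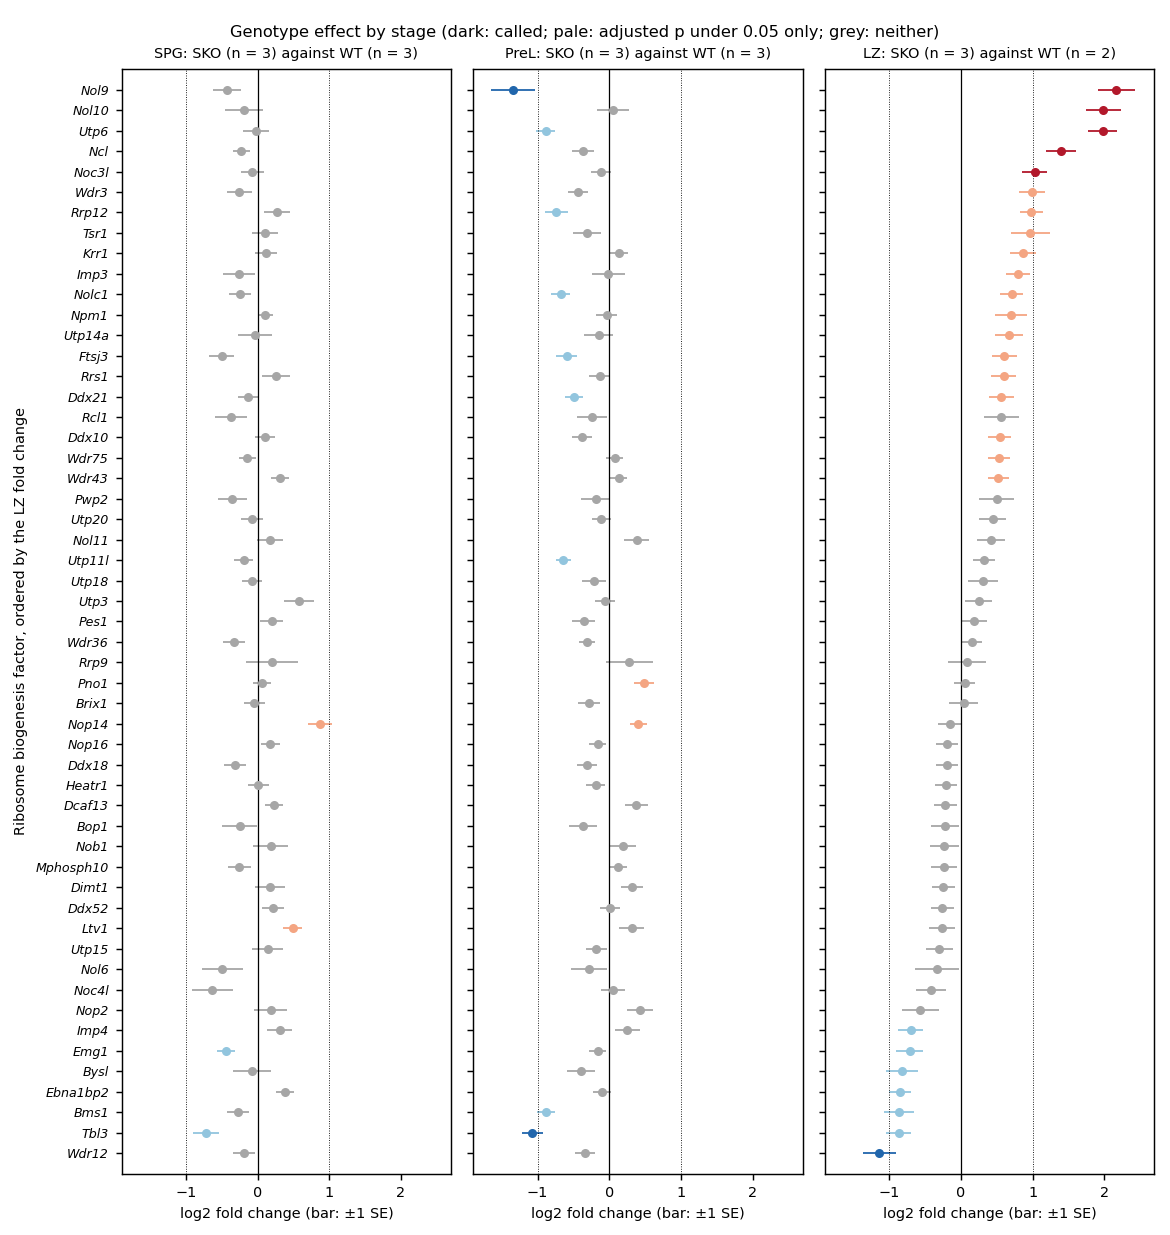
log2 fold change of SKO against WT in SPG, PreL and LZ for each of the 53 factors, ordered by the LZ value; points are limma estimates and bars 1 SE, dark points are called, pale points pass the adjusted p alone, and dotted lines mark a log2 fold change of 1 in either direction. In LZ the values run from -1.14 for Wdr12 to 2.17 for Nol9, while in SPG they stay between -0.72 and 0.87.

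Nol9 held 2746 and 2912 rescaled counts in the WT LZ libraries and 18011, 9662 and 11938 in SKO. The SKO libraries were all far above WT, and Nol9 rose by 2.17 on the log2 scale (SE 0.26, limma, adjusted p = 0.000399). The ratio of its mean rescaled counts, a separate measure, was 4.67. Nol10, the SSU processome protein known as Enp2 in yeast, held 1361 and 986 in WT and 6034, 3891 and 4218 in SKO. The groups did not overlap, and the rise was 1.99 on the log2 scale (SE 0.25, limma, adjusted p = 0.000513). Utp6 held 1642 and 1882 in WT and 8560, 5858 and 6707 in SKO. It rose by 1.98 (SE 0.20, limma, adjusted p = 0.000192), the smallest adjusted p of the 53 in this stage.

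Ncl held 30028 and 34659 in WT LZ and 101278, 75691 and 79945 in SKO LZ. It encodes nucleolin, which binds nascent rRNA, and it rose by 1.40 (SE 0.21, limma, adjusted p = 0.00136). Its exons overlap the annotated snoRNA gene Snora75 on the same strand. Noc3l, which escorts the pre-60S particle through the nucleus, held 1937 and 2411 in WT and 4354, 4095 and 4856 in SKO. Its groups did not overlap and it rose by 1.03 (SE 0.18, limma, adjusted p = 0.00236), close to the fold threshold: without WT LZ 2 it stood at 0.85 and without SKO LZ 3 at 0.97, and it was then not called. It was also not called on the calibrated values without rescaling, at 0.90, where 4 were called higher and 1 lower. Wdr12, which forms the PeBoW complex of 60S assembly with Pes1 and Bop1, held 8271 and 14033 in WT and 4914, 4773 and 4961 in SKO. The SKO libraries were close together and the WT pair was not, and Wdr12 fell by 1.14 (SE 0.23, limma, adjusted p = 0.0047). Without WT LZ 3 its log2 fold change was -0.78 and no factor was called lower, and without WT LZ 2 there were 3 called lower. Wdr12 exons overlap those of Carf on the other strand.

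**Figure D3:**
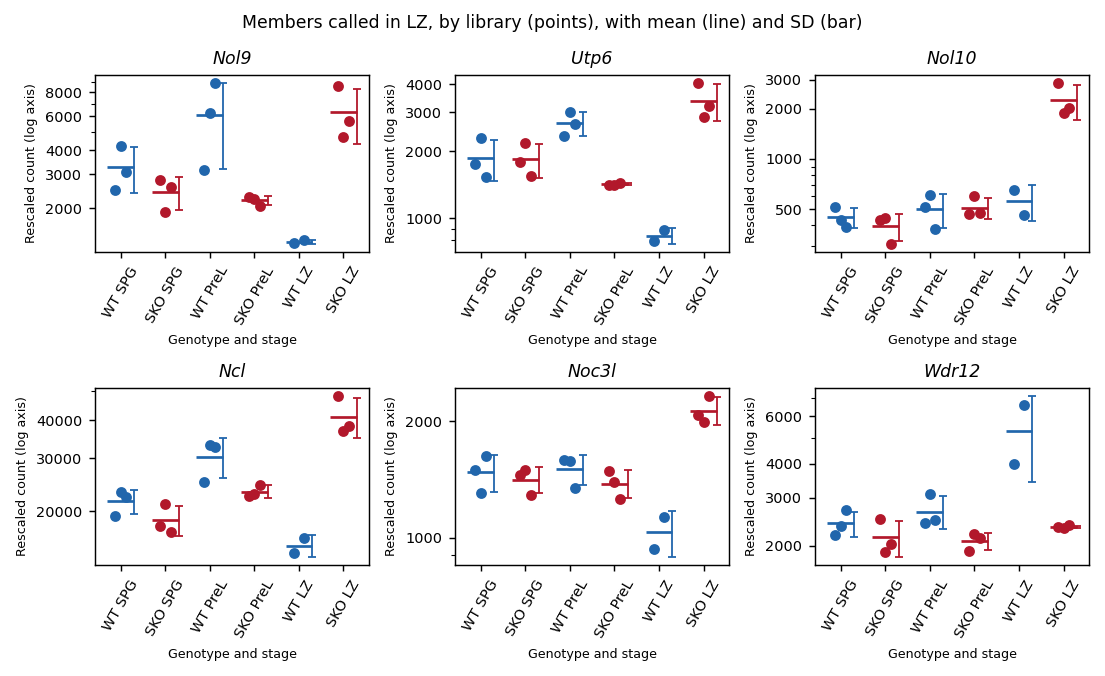
Rescaled counts (log axis, rescaled over all 17 libraries) of the 6 factors called in LZ, for each library (points), with group mean (line) and SD (bar); n = 3 per group except WT LZ with 2. Nol9, Utp6, Ncl and Noc3l have their lowest group mean in WT LZ and their highest or near-highest in SKO LZ, Nol10 is high only in SKO LZ, and Wdr12 is high only in WT LZ.

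The other members of the PeBoW complex did not pass the test, and their difference from Wdr12 was not tested. Pes1 held 3141 and 3736 in WT LZ and 4274, 3425 and 4061 in SKO, and its groups overlapped (log2 0.19, limma, adjusted p = 0.407). Bop1 held 1595 and 1420 in WT and 1337, 1341 and 1196 in SKO, all slightly lower (log2 -0.22, limma, adjusted p = 0.385). Among the other 60S factors, Ftsj3 rose by 0.60 (adjusted p = 0.0229) and Rrs1, which brings the 5S ribonucleoprotein to the particle, rose by 0.60 (adjusted p = 0.0227). Ebna1bp2, an early 60S factor, held 8207 and 9717 in WT and 4720, 5261 and 4917 in SKO and fell by 0.85 (limma, adjusted p = 0.00318). Nop2, which methylates a cytosine of 28S rRNA, held 1665 and 1385 in WT and 1211, 1100 and 803 in SKO. All its SKO libraries were lower, with a log2 fold change of -0.57 that did not pass the test (limma, adjusted p = 0.101).

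The 4 general nucleolar proteins, Ncl, Npm1, Nolc1 and Ddx21, were past the adjusted p in LZ. Ncl and Nolc1 passed whichever of the 5 libraries was left out, while Npm1 and Ddx21 each passed in 1 of these 5 fits (limma, adjusted p = 0.0566 to 0.162 and 0.0553 to 0.0943 in the other 4). Npm1 held 56501 and 75792 in WT and 100215, 108720 and 109961 in SKO and rose by 0.70 (limma, adjusted p = 0.0346). Nolc1 held 2153 and 2063 in WT and 3634, 3490 and 3240 in SKO and rose by 0.71 (limma, adjusted p = 0.00806). No WT library of any of these genes reached a SKO library, and Ddx21 rose by 0.57 (limma, adjusted p = 0.0264). Of the words of 40 bases in Npm1 transcripts, 26.2% also occurred in transcripts of another annotated gene, most often in Gm9118.

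In the UtpA complex, which binds the start of the rRNA precursor, Wdr43 rose by 0.52 (adjusted p = 0.0203) and Wdr75 by 0.53 (adjusted p = 0.0205, both limma), and the other 3 did not pass the test. Heatr1, the largest UtpA subunit, held 5802 and 6001 in WT and 5611, 4685 and 5013 in SKO. Its SKO libraries lay below WT by a log2 fold change of -0.21 (limma, adjusted p = 0.283). In the UtpB complex, Utp6 and Wdr3 rose, the latter by 0.99 (limma, adjusted p = 0.0031), and Tbl3 fell by 0.87 (limma, adjusted p = 0.00518). Tbl3 held 2995 and 2841 in WT LZ and 1543, 1749 and 1493 in SKO, so that in each of the 3 stages every SKO library lay below every WT library of the stage. Pwp2, the UtpB subunit known as Utp1 in yeast, held 838 and 761 in WT and 1086, 991 and 1362 in SKO (log2 0.50, limma, adjusted p = 0.123).

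Genes of the MPP10 complex differed in direction in LZ, and the difference between them was not tested. Imp3 rose by 0.79 (adjusted p = 0.00585) and Imp4 fell by 0.70 (adjusted p = 0.013, both limma), although both proteins bind Mphosph10 in 1 complex. Mphosph10 itself held 4146 and 5867 in WT and 4091, 4131 and 4349 in SKO, which overlapped (log2 -0.23, limma, adjusted p = 0.327). Bms1 fell by 0.86 (limma, adjusted p = 0.0113). Rrp9 held 955 and 801 in WT and 1166, 787 and 873 in SKO, with no separation (log2 0.09, limma, adjusted p = 0.808).

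Among the other SSU processome genes, Krr1, a KH-domain protein, rose by 0.87 (adjusted p = 0.0051), Ddx10, an RNA helicase, rose by 0.54 (adjusted p = 0.0257), and Emg1 fell by 0.71 (adjusted p = 0.015, all limma). Emg1 held 5843 and 5231 in WT and 2834, 3927 and 3423 in SKO. Utp14a, the X-linked cofactor of the helicase that releases U3, held 1005 and 1168 in WT and 1680, 1814 and 1694 in SKO, and rose by 0.67 (limma, adjusted p = 0.024). Utp14b, its autosomal retrocopy needed in spermatogenesis, held 447 and 1034 in WT LZ and 629, 670 and 515 in SKO LZ and overlapped (log2 -0.18, limma, adjusted p = 0.73). It was not called in any comparison, and its exons overlap those of Acsl3.

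Late 40S factors also went both ways. Rrp12 rose by 0.99 (adjusted p = 0.00205) and Tsr1, a GTPase-like protein on the late 40S particle, rose by 0.97 (adjusted p = 0.0194), while Bysl fell by 0.82 (adjusted p = 0.0196, all limma). Dimt1, which dimethylates adenosines near the end of 18S rRNA, held 3182 and 3503 in WT and 2754, 2849 and 2847 in SKO. The SKO libraries were lower by a log2 fold change of -0.24 (limma, adjusted p = 0.227). Nob1, the nuclease that makes the mature 18S end, held 1338 and 1499 in WT and 1314, 1115 and 1196 in SKO (log2 -0.23, limma, adjusted p = 0.383).

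Of the 26 factors past the adjusted p in LZ, 14 passed whichever library was left out. Beside Npm1 and Ddx21, Ftsj3, Emg1, Ddx10 and Tsr1 did not pass in 4 of the 5 fits, and Utp14a, Wdr43, Wdr75, Imp4, Rrs1 and Bysl in 3 of the 5 (limma, adjusted p = 0.0565 to 0.138 over these 10 factors).

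The count of 5 called higher was larger with count models, at 8 with edgeR and 8 with DESeq2, and at 10 after trends with transcript length and GC content were removed, which was added once the data had been seen. Wdr3, Rrp12 and Tsr1, just under the fold threshold here, were called by both count models, and removing the trends added Imp3, Rcl1, Rrs1, Tsr1 and Rrp12. Across the 53, the LZ log2 fold change had a Spearman correlation of -0.01 with exon length, -0.08 with GC content and 0.09 with mean level, given as a description over genes that share the same libraries. Few of the factors share sequence with other genes: in 40 of the 53, under 2% of the words of 40 bases in their transcripts occurred in another gene, and in 5 of them over 10% did. The 5 were Ddx18, Npm1, Pes1, Dimt1 and Imp3.

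The interaction of genotype with stage, fitted over all 17 libraries, compared the SKO effect in LZ with that in PreL. The LZ effect was more positive than the PreL effect for 22 of the 53 (41.5%), against 15.1% of 13530 genes, and more negative for 6 (11.3%), against 23.1%. The median difference was 0.34 for the 53 and -0.31 for all genes. On the calibrated values without rescaling these medians were -0.53 and -1.12, with 5 more positive and 21 more negative, so the direction of the median is relative to other genes. The largest differences were those of Nol9, at 3.53 (SE 0.42, limma, adjusted p = 3.09e-06), and Utp6, at 2.88 (SE 0.26, adjusted p = 5.75e-08). Nol10 differed by 1.95 (adjusted p = 0.000259), Ncl by 1.79 (adjusted p = 3.32e-06), Rrp12 by 1.75 (adjusted p = 2.95e-05), Wdr3 by 1.45 and Nolc1 by 1.41 (all limma). In the other direction Nop2 differed by -0.96 (adjusted p = 0.0217), Imp4 by -0.93 (adjusted p = 0.00798), Wdr12 by -0.77 (adjusted p = 0.0191) and Ebna1bp2 by -0.72 (adjusted p = 0.00374, all limma). Without WT LZ 3 Wdr12 stood at -0.43 (limma, adjusted p = 0.179), and Nop2 did not pass without WT LZ 2 (adjusted p = 0.0835) or SKO LZ 3 (adjusted p = 0.0666). Of the 28 differences, 17 passed whichever of the 11 PreL and LZ libraries was left out, and Wdr36, Imp3, Utp20, Pes1, Emg1, Rcl1 and Dcaf13 did not pass in 7 to 9 of these 11 fits (limma, adjusted p = 0.0502 to 0.323).

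The stages were also compared within each genotype; these comparisons share libraries with those above. From SPG to PreL in WT, none of the 53 was called, against 1.21% of 12657 genes lower and 2.54% higher, and none passed the adjusted p alone (limma), against 3.02% and 4.27%. Every PreL library was below every SPG library for 6 factors, against 14.8% of all genes, and above for 9, against 15.6%. The largest difference was that of Nol9, which held 1698, 2886 and 2106 rescaled counts in SPG and 2105, 4117 and 5978 in PreL (log2 0.77, limma, adjusted p = 0.147). Without WT PreL 1 it was called, at 1.18 (limma, adjusted p = 0.0209).

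From PreL to LZ in WT, many factors fell relative to other genes. Nol9, Utp6, Utp14a, Rrp12, Tsr1, Utp11l, Ncl and Nolc1 were called lower, which is 15.1% of the 53, against 7.80% of 13759 genes, and none was called higher, against 18.8%. By the adjusted p alone 17 fell (32.1%, against 14.2%) and 1 rose (1.89%, against 20.5%). Every LZ library was below every PreL library for 29 factors (54.7%, against 28.8%) and above for 6 (11.3%, against 34.2%). The median log2 fold change was -0.32 for the 53 and 0.13 for all genes. These falls are relative: on the calibrated values without rescaling the median of all genes was 1.86, that of the 53 was 1.51, 52 of the 53 lay above 0, 41 were called higher and none lower.

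Nol9 held 3556, 7046 and 10325 rescaled counts in WT PreL and 1377 and 1393 in WT LZ. Both LZ libraries were below all PreL libraries, and Nol9 fell by 2.19 (SE 0.38, limma, adjusted p = 0.00366). It was the 1 factor still below 0 on the calibrated scale, at -0.37 (limma, adjusted p = 0.394). Utp6 held 2648, 3407 and 3072 in PreL and 823 and 901 in LZ, and fell by 1.80 (SE 0.21, limma, adjusted p = 0.00251). Utp14a held 1094, 1524 and 1736 in PreL and 504 and 559 in LZ, and fell by 1.41 (SE 0.27, limma, adjusted p = 0.00563). The groups did not overlap for any of the 8 called. Rrp12 fell by 1.29, Tsr1 by 1.28, Utp11l by 1.13, Ncl by 1.11 and Nolc1 by 1.05, with adjusted p between 0.00295 and 0.0124 (limma). In 1 fit of all libraries Utp11l, Ncl and Nolc1 stood between -0.98 and -0.91 and 5 remained called. Wdr12 was the 1 that rose by the adjusted p, by 0.80, from 2715, 3513 and 2882 to 4146 and 6716 (limma, adjusted p = 0.0327). Without WT LZ 2 it was called, at 1.14 (limma, adjusted p = 0.0228), and in 3 of the 5 fits without 1 library it did not pass (adjusted p = 0.102 to 0.182). Of the 18 factors past the adjusted p, 8 passed in all 5 of these fits; Tsr1 was the 1 called factor that did not (adjusted p = 0.0714 in 1 of them).

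From PreL to LZ in SKO, few factors were called. Nol10, Nol9 and Utp6 were called higher (5.66%, against 10.6% of 12477 genes) and none was called lower (against 6.93%). By the adjusted p alone 15 rose (28.3%, against 17.8%) and 8 fell (15.1%, against 19.1%). Every LZ library was above every PreL library for 20 factors (37.7%, against 25.2%) and below for 11 (20.8%, against 27.7%). The medians were 0.08 for the 53 and -0.01 for all genes, and 0.92 and 0.81 on the calibrated values without rescaling, where 53 of the 53 lay above 0. Of the 23 past the adjusted p, 13 passed whichever of the 6 libraries was left out, Nol10, Nol9, Utp6 and Emg1 among them.

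Nol10 held 700, 880 and 748 in SKO PreL and 4287, 2796 and 3005 in SKO LZ. The groups were far apart, with a rise of 2.08 (SE 0.18, limma, adjusted p = 8.45e-05), whereas in WT the same step had a log2 fold change of 0.02 (limma, adjusted p = 0.962). Nol9 held 3460, 3295 and 3267 in SKO PreL and 12796, 6944 and 8506 in SKO LZ and rose by 1.45 (SE 0.20, limma, adjusted p = 0.000757). Utp6 held 2131, 2087 and 2299 and then 6081, 4210 and 4779, a rise of 1.19 (SE 0.15, limma, adjusted p = 0.000436). After rescaling, Nol9 and Utp6 were thus called in opposite directions in the WT and SKO steps. Their interaction terms above test whether the steps differ, not whether they go in opposite directions. On the calibrated values without rescaling, no factor was called lower in the WT step. Emg1 fell by 0.78 in SKO (limma, adjusted p = 0.00297) and had -0.36 in WT (adjusted p = 0.17).

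**Figure D4:**
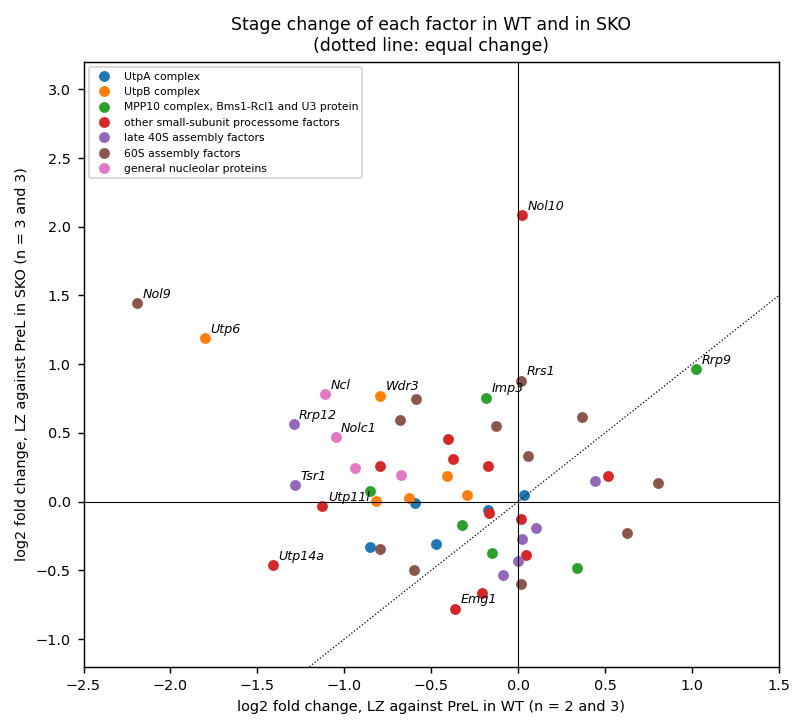
log2 fold change of LZ against PreL in WT (horizontal axis) and in SKO (vertical axis) for each of the 53 factors, coloured by role, with the line of equal change dotted; factors beyond 1 in WT or 0.75 in SKO are named. Nol9 and Utp6 lie far to the lower WT and higher SKO side (-2.19 and 1.45, -1.80 and 1.19), and Nol10 lies high in SKO and near 0 in WT (2.08 against 0.02).

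Genes around these factors were read from lists of related machinery. In LZ, 4 of 14 RNA polymerase I genes were called lower in SKO and 3 higher. Of other 40S assembly factors 6 of 21 were lower and 2 higher, of other 60S assembly factors 4 of 40 were lower and 3 higher, and of RNA exosome genes 4 of 14 were lower and 2 higher, all beside 25.8% of all genes called lower and 13.4% higher. The MYC family list had 2 of 8 lower and 1 higher, Mycn, a driver of growth genes, which rose by 2.09 (limma, adjusted p = 0.000443). In the polymerase list Taf1c, a subunit of the promoter selectivity factor, fell by 2.96 (adjusted p = 0.0101) from 181 ± 4.61 (SD, n = 2) to 20.4 ± 22.0 (n = 3), Taf1d of the same factor rose by 1.51 (adjusted p = 0.000223) and Cd3eap, a polymerase subunit, by 1.25 (adjusted p = 0.00904, all limma). Lyar, Ddx49 and Rrp7a of the 40S list had log2 fold changes of -2.96, -1.9 and -1.69 (limma, adjusted p = 0.000265, 0.00443 and 0.00322), and Mxd4 and Mxd1 of the MYC list had -2.04 and -1.73 (limma, adjusted p = 0.00361 and 0.00566).

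The largest changes of these lists were in the 60S and exosome genes Gnl3l, Exosc2 and Nip7, which had log2 fold changes of 3.99, 4.0 and 3.50 (limma, adjusted p = 5.17e-05, 5.25e-05 and 0.000186). Nip7 held 1779 and 1712 RPM in WT LZ and 17752, 13254 and 14985 in SKO LZ, where it ranked 1st of all genes in each library. Of the words of 40 bases in Nip7 transcripts, 3.76% occurred in more than 5 other genes, against 2.08% for Exosc2 and 1.27% for Gnl3l. Among the factors the share was highest for Utp11l, at 2.51%, and it was 2.01% for Nol10, 0.38% for Utp6 and 0 for Nol9. Whether such repeats bear on the counts was not tested. Exosc5 and Rrp1 had log2 fold changes of -3.14 and -2.45 (limma, adjusted p = 0.000103 and 0.000164), and Exosc6 rose by 1.78 (limma, adjusted p = 0.00259).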

How the data were processed

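RNA of sorted cells was measured by Smart-seq2 with oligo(dT) priming and PCR amplification, without molecular identifiers or strand. The authors mapped reads to mm10 (the submitters' processing notes name TopHat2 2.1.1), counted unique alignments with HTSeq 0.11.2, and deposited counts multiplied by 1 ERCC calibration factor per library. For WT SPG 1 this factor is 1, so its deposited values are counts. For the other 16 libraries the deposited values are calibrated signal, in which 100% of values were whole multiples of 1 step (tolerance 0.001), which gave the reads; the factors ran from 1 to 10.4.

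For each comparison the deposited values were rescaled by median-of-ratios factors, computed on its own libraries. Genes averaging 10 or more reads were retained. limma 3.58.1 (R 4.3.3) then tested log2 of the rescaled value plus 10, with a mean-variance trend, two-sided, and Benjamini-Hochberg adjustment over all genes; fold changes on this scale understate those of low genes. edgeR 4.0.16 and DESeq2 1.42.0 on the recovered reads were alternatives, and others are named in the closing section. The fits between pairs of groups were tested on simulated data with a fixed spread and randomly drawn directions of change. Those data held no uneven shift such as that between the genotypes in LZ, so they cannot show the error rate there. The factors, the role, pathway and marker lists and the tests were chosen with earlier results of these data known. Any factor could be named. Values by library were set to be given for 14 factors of the main complexes and for the 3 called factors with the largest change in each comparison and direction. Those of Tbl3, Emg1, Nop14, Noc3l, Wdr12, Ebna1bp2, Utp6 and Nol9 were chosen after they were seen where that rule did not name them. Library values of Utp14b and Nip7, which are not among the factors, were also outside that rule. Of each pathway list, the 3 called genes with the largest change in LZ were named. Positions and exon overlaps came from GENCODE for GRCm38, and promoters from RefSeq. PCR reads are not independent molecules.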

Additional observations from a re-analysis of the deposited data

Results flagged for a closer look

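The genotype effect in LZ differed from that in PreL, by the interaction test over 17 libraries (limma, adjusted p under 0.05), for 28 of the 53 factors. It was more positive in LZ for 22 of them, in log2 units by 3.53 for Nol9, 2.88 for Utp6, 1.95 for Nol10, 1.79 for Ncl, 1.75 for Rrp12, 1.45 for Wdr3 and 1.41 for Nolc1. The next were Tsr1 at 1.29, Ftsj3 at 1.22, Noc3l at 1.16, Ddx21 at 1.07, Utp11l at 0.98, Ddx10 at 0.95, Imp3 at 0.83, Rcl1 at 0.82, Npm1 at 0.76, Rrs1 at 0.75 and Krr1 at 0.75. The smallest were Utp20 at 0.58, Pes1 at 0.57, Wdr36 at 0.49 and Wdr75 at 0.48. It was more negative for Nop2 at -0.96, Imp4 at -0.93, Wdr12 at -0.77, Ebna1bp2 at -0.72, Dcaf13 at -0.57 and Emg1 at -0.52. Of the 28, 17 passed whichever of the 11 PreL and LZ libraries was left out. Wdr36 did not pass in 9 of these 11 fits (limma, adjusted p = 0.0547 to 0.152), Imp3 in 9 (0.0644 to 0.157), Utp20 in 8 (0.0502 to 0.323), Pes1 in 8 (0.0516 to 0.151), Emg1 in 8 (0.0629 to 0.138), Rcl1 in 7 (0.0636 to 0.227), Dcaf13 in 7 (0.0567 to 0.113), Wdr75 in 5 (0.0517 to 0.176), Nop2 in 2 (0.0666 and 0.0835), Wdr12 in 1 (0.179) and Rrs1 in 1 (0.0666). Imp3 also did not pass with a pseudocount of 1, without the filter or with DESeq2. Between SPG and LZ, 5 factors (9.43% of the 53, against 9.37% of 12230 genes) had every SKO library on 1 side of WT in SPG and on the opposite side in LZ, a difference that was not tested: their log2 fold changes in LZ were 0.71 for Nolc1, 0.60 for Ftsj3, -0.16 for Nop14, -0.22 for Dcaf13 and -0.85 for Ebna1bp2. Between SPG and PreL no factor, 0 of 53, did so, against 1% of 12362 genes.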

How the results depend on the processing

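Calls here are by adjusted p and fold together, and by adjusted p alone in the interaction. Of 6466 values of single factors under the alternatives, 6148 kept their call or stayed uncalled, 106 lost a call and 167 gained one. The other 45 changed sign and were called in the main fit, the alternative or both. Changes of sign without a call were not counted. In SPG 29 factors lay below 0 after rescaling and 47 on the calibrated values, with 0 called. For LZ against PreL in SKO, 22 lay below 0 in the main fit and 26 with TMM scaling. The adjusted p alone was less stable: of the factors past it, those that stayed past it whichever library was left out were 1 of 4 in SPG, 4 of 11 in PreL, 14 of 26 in LZ, 8 of 18 for LZ against PreL in WT, 13 of 23 in SKO and 17 of 28 in the interaction (limma). All 45 of these reversals with a call arose on the ERCC-calibrated values without rescaling. For LZ against PreL in WT, the 32 reversed factors stood at log2 Utp3 1.65, Utp6 0.021, Utp11l 0.70, Utp14a 0.40, Utp18 1.20, Utp20 1.45, Wdr3 1.03, Wdr36 1.42, Wdr75 1.24, Heatr1 1.66, Nol6 1.63, Nol11 1.35, Tbl3 1.53, Imp3 1.63, Mphosph10 1.68, Bms1 1.51, Dcaf13 1.62, Ftsj3 1.24, Emg1 1.47, Dimt1 1.82, Noc3l 1.14, Nop16 1.23, Pes1 1.70, Brix1 1.04, Ddx10 1.04, Krr1 1.42, Tsr1 0.52, Ltv1 1.75, Rrp12 0.53, Npm1 1.16, Ncl 0.72, Nolc1 0.77. For the genotype effect in LZ minus that in PreL, the 13 reversed stood at Utp20 -0.29, Wdr36 -0.38, Wdr75 -0.39, Heatr1 -0.87, Nol11 -0.81, Imp3 -0.029, Bms1 -0.83, Rcl1 -0.033, Pes1 -0.30, Rrs1 -0.11, Ddx18 -0.73, Krr1 -0.11, Npm1 -0.11. On that scale the factors called were 0 lower and 7 higher in PreL, 1 lower and 4 higher in LZ, 0 lower and 41 higher for LZ against PreL in WT, 23 higher for LZ against PreL in SKO, and 21 more negative and 5 more positive in the interaction. Without the fold threshold, 2 were lower and 2 higher in SPG, 9 and 2 in PreL, 7 and 19 in LZ, 17 and 1 for LZ against PreL in WT, and 8 and 15 in SKO. In LZ the count called higher was 8 with edgeR, 8 with DESeq2 and 10 with length and GC trends removed (chosen after the data were seen). DESeq2 called 1 higher for LZ against PreL in WT, 1 fit of all libraries called 5 lower and 1 higher there, and edgeR gave 3 more negative in the interaction. Leaving out 1 library at a time gave 0 to 2 called lower in PreL, 0 to 3 lower and 5 to 7 higher in LZ, 0 to 1 higher for PreL against SPG in WT, 7 to 9 lower and 0 to 1 higher for LZ against PreL in WT, 3 to 4 higher in SKO, and 3 to 6 more negative (3 without SKO LZ 3) and 17 to 20 more positive in the interaction; an arm left with 1 library was assumed to vary like the others. TMM scaling, pseudocounts of 1 and 50, no filter and a mean of at least 50 reads moved none of these counts by over 1.5 times. No pairing of same-numbered replicates was seen, with correlations of deviations between -0.188 and 0.131, and 1 of 3 SKO PreL libraries correlated best with its own number in SKO LZ. Groups of 2 or 3 libraries are too small for this check to exclude pairing. A fit with the replicate number as a block gave 1 called lower in PreL (Tbl3) and moved no other count of calls by over 1.5 times; for LZ against PreL in WT no paired analysis was possible because the groups share 1 number. Depth limits the lowest factors, such as Nol6 with 61 reads.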
